A study of Rattus norvegicus with 30 samples.

Results

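The promoters described here had less captured methylated DNA in the thalamus than in both the perilesional cortex and the hippocampus of the same 10 rats. The set was chosen by its measured levels. A promoter was a member when its median level was 20 CPM (counts per 1000000 promoter counts of a library) or more in cortex and in hippocampus and when the median plus 1 in each of these tissues was at least 1.5 times the median plus 1 in thalamus. Of 19758 promoters matched between the 3 tissues, 10047 reached the level of 20 CPM in cortex and hippocampus, and 186 of them were members. The lower level in thalamus is therefore how the members were found and is described here without a test. For each member the lower of the cortex-to-thalamus and hippocampus-to-thalamus ratios is called the smaller ratio.

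The libraries came from adult male Sprague-Dawley rats, of which 5 were sham-operated (rats 1 to 5) and 5 had a traumatic brain injury (TBI) by lateral fluid percussion (rats 6 to 10), and tissue was taken 3 months later. Sham-operated rats had the same anaesthesia and craniectomy without the impact. From each rat came the cortex around the lesion, and the hippocampus and thalamus of the injured side, which makes 30 libraries with 5 per tissue and treatment. The collection protocol describes the hippocampal piece as dentate gyrus with a part of the neighbouring CA field, so that it was not the whole hippocampus. All pieces were bulk tissue, and a difference in the mix of cell types cannot be told apart from a difference within cells. By reference to its RNA-sequencing, the study describes a different sequencer for thalamus than for cortex and hippocampus, while the labels name a single model for all libraries, so that tissue and instrument cannot be told apart.

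In vertebrate DNA a methyl group is placed on cytosines that stand before a guanine, and promoters that are dense in such CpG sites are mostly unmethylated. Methylation of a promoter usually goes with a silent gene, and tissues and cell types differ in which promoters carry it. In methyl-binding domain sequencing (MBD-seq), sheared DNA is bound by a protein domain that holds methylated CpG, and the bound fragments are sequenced. The count of a promoter rises with its methylation, with its number of CpG sites, with its copy number and with the efficiency of the capture, and it is not a percentage of methylation. Repeated or near-identical sequence can also collect reads from elsewhere in the genome. The tables name promoters by Ensembl rat gene identifiers only, and 0 of the 186 members could be paired with a gene symbol in the reference used here. For this reason the members are named by identifier, gene roles and gene groups are not given, no promoter sequence or coordinate is shown, and the labelled tissues could not be checked against marker genes.

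The members were of ordinary to high capture outside the thalamus and of low capture within it. Over the 186 members, the median of the tissue medians was 40.8 CPM in cortex (range 20.1 to 903), 55.2 CPM in hippocampus (range 20.7 to 1654) and 19.9 CPM in thalamus (range 1.85 to 233). Over the 10047 promoters at 20 CPM or more, the same medians were 47.3 CPM in cortex, 44.2 CPM in hippocampus and 48.6 CPM in thalamus. The median raw count of a member in thalamus was 64, and 1 member had a median below 10 counts there. Total promoter counts were 1862708 to 3992056 per library in cortex, 1430875 to 2440662 in hippocampus and 2675177 to 4227800 in thalamus, with the highest median in thalamus.

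**Figure D1:**
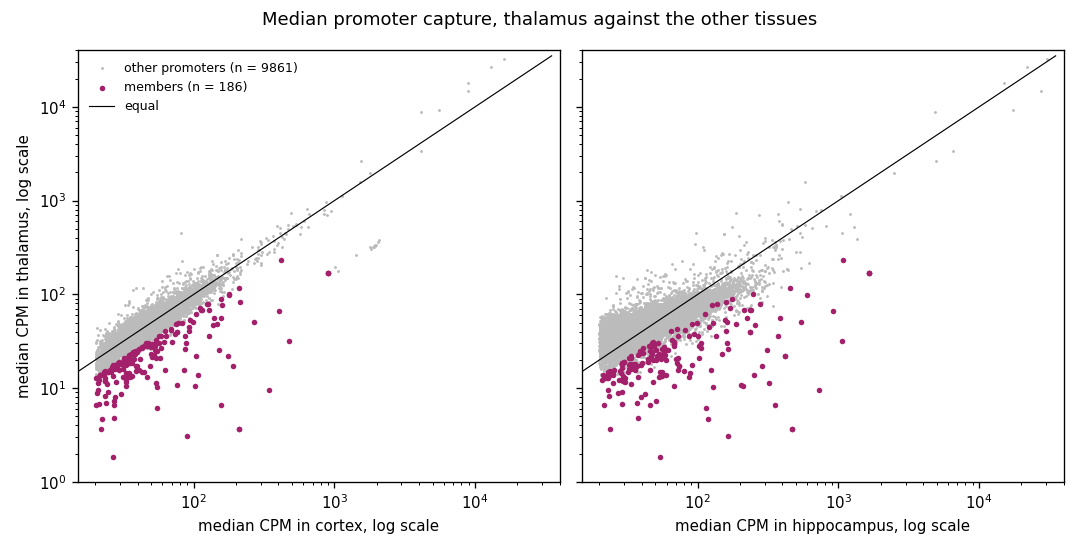
Each point is a promoter with a median of 20 CPM or more in cortex and hippocampus, with its median CPM over 10 libraries in cortex (left) or hippocampus (right) on the x axis and in thalamus on the y axis, both on log scales, and the line marks equal levels. The 186 members lie below the line by the rule, and a few with 100 to 1000 CPM on the x axis lie at 3 to 35 CPM in thalamus.

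Most members lay close to the threshold and a small number lay far from it. The smaller ratio was 1.5 to 2 in 113 members, 2 to 3 in 38, 3 to 5 in 16, 5 to 10 in 12 and 10 or more in 7, with a median of 1.78 and a maximum of 45.1. It was below 1.6 in 58 members, and 95 further promoters had a smaller ratio of 1.4 to 1.5. Just inside the threshold were ENSRNOG00000027919 with 26.8 CPM in cortex, 32.4 CPM in hippocampus and 17.5 CPM in thalamus, ENSRNOG00000004033 with a smaller ratio of 1.503 and ENSRNOG00000021213 with 1.507. Just outside it was ENSRNOG00000010077 with 41.7, 46.8 and 27.5 CPM in the same order of tissues, with a smaller ratio of 1.4995, followed by ENSRNOG00000022456 at 1.4986 and ENSRNOG00000031517 at 1.4982. The edge of the set is thus a cut through a continuous distribution, and its far end is the thinning tail of the same distribution.

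Most promoters at the far end had levels above 50 CPM in cortex and hippocampus and below 20 CPM in thalamus. ENSRNOG00000027365 had 51.6 CPM in the lowest, 209.5 CPM in the median and 610 CPM in the highest cortex library. In hippocampus its lowest, median and highest libraries had 239, 465 and 733 CPM. In thalamus it had 1.66 to 6.34 CPM with a median of 3.67 CPM, which came from 7 to 20 reads per library. Every cortex and hippocampus library was above every thalamus library, and the smaller ratio was 45.1. ENSRNOG00000048957 had the same counts as ENSRNOG00000027365 in all 30 libraries, so that these are 1 measurement under a pair of identifiers.

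ENSRNOG00000018173 had 67.4, 344 and 897 CPM in the lowest, median and highest cortex library and 423, 725 and 1128 CPM in hippocampus. Its thalamus libraries lay between 2.60 and 11.6 CPM with a median of 9.47 CPM, again without overlap. ENSRNOG00000048190 had a median of 90.1 CPM in cortex, 164 CPM in hippocampus and 3.08 CPM in thalamus. ENSRNOG00000004581 was similar, with medians of 157, 352 and 6.64 CPM. In all of these the hippocampus median was 1.82 to 2.24 times the cortex median.

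ENSRNOG00000005954 combined a high level with a high ratio, with 86.7 to 1334 CPM in cortex, 578 to 1597 CPM in hippocampus and 23.4 to 41.1 CPM in thalamus. The next 4 members by smaller ratio were ENSRNOG00000009131 at 10.6, ENSRNOG00000002628 at 9.74, ENSRNOG00000036719 at 8.96 and ENSRNOG00000005145 at 7.82. Of these, ENSRNOG00000002628 was the least abundant, with medians of 26.7 CPM in cortex, 53.7 CPM in hippocampus and 1.85 CPM in thalamus. In all 10 leading members the ranges of cortex and thalamus and those of hippocampus and thalamus were separate. This was so in 44 of 186 members and in 0.349% of all matched promoters. The 10 were picked by their ratios to thalamus and include the pair with equal counts, so that this is a description.

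**Figure D2:**
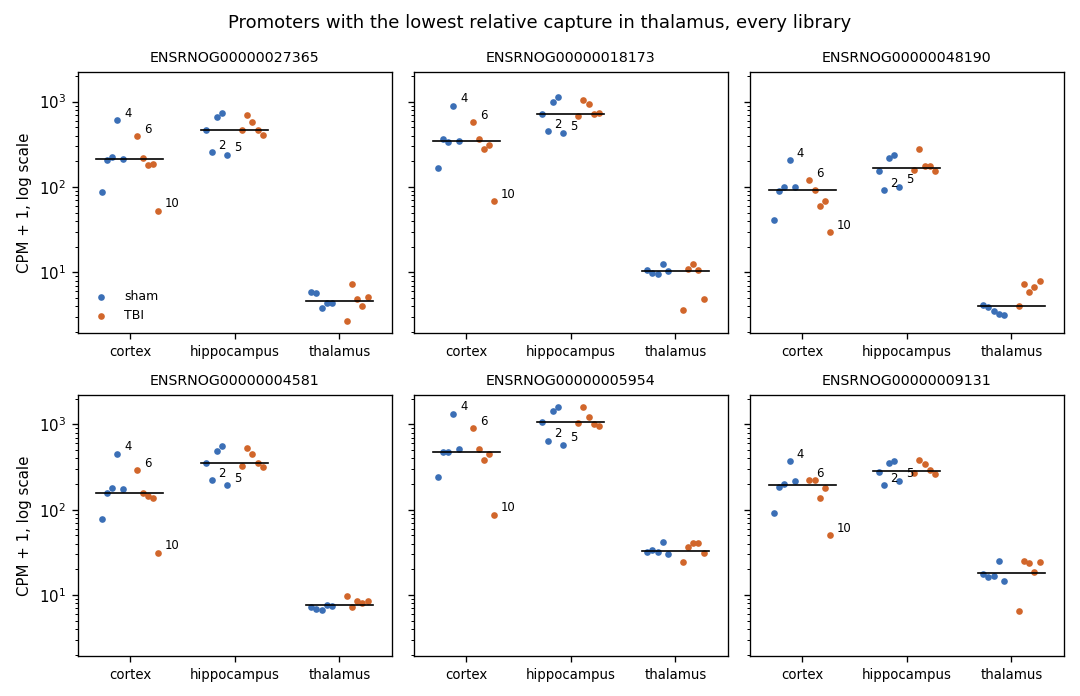
CPM plus 1 (log scale) of 6 leading members in each of the 30 libraries, by tissue, with sham and TBI in separate colours, medians over 10 libraries as lines and some rat numbers beside the points. The thalamus libraries lie below all others in each panel, cortex rats 4 and 6 lie toward the hippocampus level and cortex rat 10 lies lowest in cortex.

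The members with the highest level in cortex were a different selection. ENSRNOG00000046024, ENSRNOG00000050499 and ENSRNOG00000033130 each had a median of 903 CPM in cortex, and their counts moved together from library to library. ENSRNOG00000046024 ranged from 202 to 2123 CPM in cortex, from 1008 to 2512 CPM in hippocampus and from 103 to 186 CPM in thalamus, with a smaller ratio of 5.35. ENSRNOG00000050499 and ENSRNOG00000033130 had equal counts in 21 of 30 libraries and differed by at most 3 counts in the others. ENSRNOG00000005954 came next, and ENSRNOG00000024145 was the fifth, with 106 to 1782 CPM in cortex (median 416), 415 to 2679 CPM in hippocampus (median 1072) and 110 to 269 CPM in thalamus (median 233). Its cortex and thalamus ranges overlapped, and its smaller ratio of 1.78 was near the median of the members. Except for ENSRNOG00000005954, these abundant members were not among the 10 leading ones by ratio, and their thalamus medians were 168 CPM or more.

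Equal counts were found more widely. Of the 186 members, 10 fell into 5 groups with equal or nearly equal counts (within 2% or 2 counts in each library), and 181 remained when each group was counted once. Of the members, 6 (3.23%) had counts equal to those of another member in all 30 libraries, against 374 of 19758 matched promoters (1.89%) that had such a partner anywhere. Besides the leading pair, ENSRNOG00000011355 and ENSRNOG00000049813, as well as ENSRNOG00000025534 and ENSRNOG00000047663, did not differ by a single count. Reads in such rows cannot be assigned to 1 of the genes, and the members of a group are not independent.

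The levels of single libraries separated the tissues less often than the medians. All 10 cortex libraries were above all 10 thalamus libraries in 50 of 186 members, where 0.709% of all matched promoters had this order. All 10 hippocampus libraries were above all 10 thalamus libraries in 124 members, where the background was 2.24%. Because the rule used these levels, the counts describe the members only. The count for cortex depended on the libraries included, and leaving out libraries can only raise it. Cortex rat 10 was the lowest cortex library in 129 members and cortex rat 1 in 24, and without these libraries cortex and thalamus were separate in 122 members and in 1.46% of all matched promoters.

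The libraries that stood apart in the whole series, namely cortex rats 1, 4, 6 and 10, hippocampus rats 5 and 9 and thalamus rat 6, were in part also the extreme ones for the members. Without them, 138 members were separate between cortex and thalamus, against 4.24% of all matched promoters, and 137 between hippocampus and thalamus, against 4.76%. Here too, using fewer libraries can only raise such counts. Cortex rat 4 was the highest cortex library in 110 members, hippocampus rat 5 was the lowest hippocampus library in 75 and thalamus rat 6 was the lowest thalamus library in 106. Hippocampus rat 9, in contrast, was the highest hippocampus library in 24 members, fewer than rat 4 with 58 and rat 7 with 43, and cortex rat 6 was the highest cortex library in 13. The rule applied without these libraries gave 184 promoters, of which 167 were among the 186 members.

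For single rats the order of the tissues is also given as a description, since the rule used these levels. A member whose ranges were separate has this order in every rat, so that these counts could not be lower than those above. The thalamus was the lowest of the 3 tissues in all 10 rats for 85 members and in 9 rats for another 73. Of all matched promoters, 1.02% and 1.86% had these orders. Cortex was above thalamus in all 10 rats for 97 members, and hippocampus was above thalamus in all 10 rats for 163. The shares of all matched promoters were 3.71% and 5.54%. The median over members of the smaller ratio within a rat was 1.11 in rat 10 and 1.59 in rat 1, and it was highest in rats 4 and 6 at 2.44 each. The other 6 rats lay between 1.69 and 2.00.

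**Figure D3:**
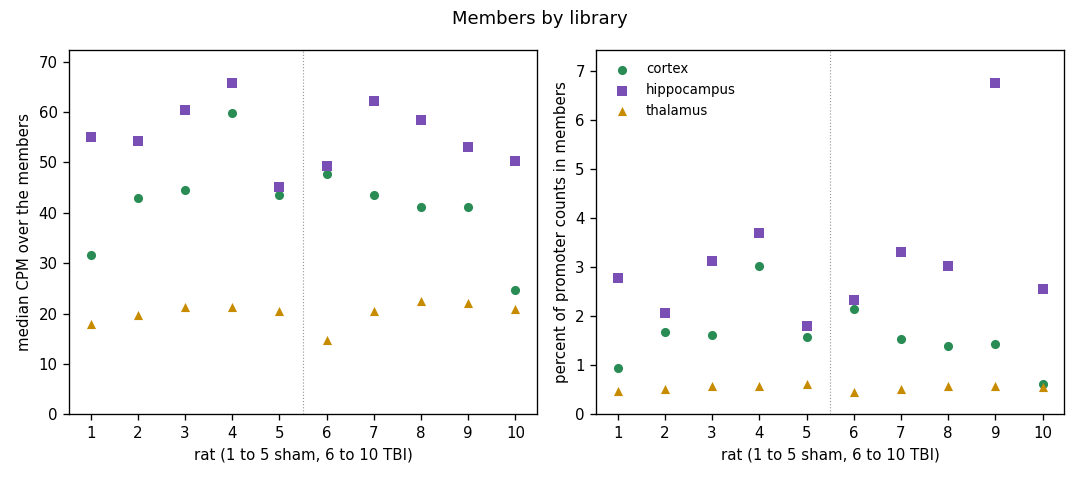
Median CPM over the 186 members (left) and percent of all promoter counts that fell in the members (right) for each rat and tissue, with the sham and TBI rats parted by a dotted line. The thalamus points lie at 14.7 to 22.5 CPM and 0.458% to 0.611% in all rats, cortex rat 10 comes close to them, and hippocampus rat 9 reaches 6.74%.

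Taken as a share of all promoter counts, the members held 0.608% to 3.02% of the counts in cortex, 1.79% to 6.74% in hippocampus and 0.458% to 0.611% in thalamus. The highest hippocampus share was that of rat 9, and without this library the range in hippocampus was 1.79% to 3.70%. The share varied least in thalamus. Leaving out the 5% of promoters of highest mean level removed 49 of the 186 members. The remaining members then held 0.630% to 1.15% of the remaining counts in cortex, 0.745% to 1.35% in hippocampus and 0.354% to 0.394% in thalamus. Thalamus did not overlap with the other tissues, which is a description, since the rule used these levels.

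The hippocampus was commonly above the cortex in these promoters, which the rule did not ask for. The median CPM was higher in hippocampus than in cortex in 155 of 186 members (83.3%), against 4705 of the 10047 promoters at 20 CPM or more (46.8%). The hippocampus was at least 1.5 times the cortex in 71 members (38.2%) and in 772 of the 10047 promoters (7.68%). The reverse, a cortex level of at least 1.5 times the hippocampus, was found in 0 members and in 1036 promoters (10.3%). Of the 19 members with a smaller ratio of 5 or more, 18 had a hippocampus level at least 1.5 times that of cortex. These include the leading pair with equal counts and the nearly equal ENSRNOG00000050499 and ENSRNOG00000033130. They also include ENSRNOG00000046024, with 19983 summed counts in cortex against 19964 in ENSRNOG00000050499, so that not all are separate measurements. Since both levels entered the rule as minimums against thalamus, the comparison is a description.

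The leading members moved together across the cortex and across the hippocampus libraries. Over the 10 libraries of a tissue, log2 CPM of the 9 distinct leading promoters had a median pairwise correlation of 0.96 in cortex (0.81 to 1.00) and 0.96 in hippocampus (0.71 to 1.00), but 0.35 in thalamus (−0.63 to 0.99). Such movement was common in cortex. The correlation with ENSRNOG00000027365 had a median of 0.79 over 184 other members and of 0.61 over the 9861 promoters at 20 CPM or more that were not members. In hippocampus these medians were 0.56 and 0.0028, and in thalamus 0.24 and 0.10. Several leading members had few reads in thalamus, with 7 to 20 per library in ENSRNOG00000027365 and 1 to 9 in ENSRNOG00000002628. The part of such low counts in the lower correlations there was not tested. In cortex, rat 4 was above all libraries other than rat 6 in 10 of the 10 leading members, and rat 6 was above the remaining cortex libraries in 9. The cortex libraries of rats 4 and 6 had 610 and 393 CPM for ENSRNOG00000027365, where the other 8 cortex libraries had at most 223 CPM, and hippocampus rat 5 had 239 CPM. These points share libraries, depth and capture conditions, and the part of these in the shared movement was not tested.

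A second group within the set followed another order of libraries. In 6 members the hippocampus library of rat 9 exceeded the tissue median by more than 4 times, which was the case in 39 of 10168 promoters with a hippocampus median of 20 CPM or more (0.384%) and in 3.23% of the members. ENSRNOG00000002413 had 35746 counts in this library, or 16052 CPM, where the other 9 hippocampus libraries had 73.7 to 483 CPM. ENSRNOG00000047154 had 7389 CPM in rat 9 and 42.6 to 226 CPM in the others. ENSRNOG00000045803 had 6143 CPM against 26.8 to 224 CPM.

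The other promoters of this group were ENSRNOG00000010224 with 4522 CPM, ENSRNOG00000022378 with 4113 CPM and ENSRNOG00000049284 with 1898 CPM in rat 9, and in all 6 the library was 42.2 to 63.3 times the median of the other 9. The cortex and thalamus libraries of rat 9 did not share this, with 55.4 and 14.4 CPM for ENSRNOG00000002413. Together the 6 promoters held 4.01% of all promoter counts of hippocampus rat 9, and 0.0245% to 0.128% in the other hippocampus libraries. Without rat 9 all 6 still met the ratio of the rule, with smaller ratios of 1.55 to 4.47.

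The group moved together also outside rat 9. Over the other 9 hippocampus libraries the 15 pairs of its members had a median correlation of log2 CPM of 0.97 (0.74 to 0.99), with rats 1, 2, 6 and 10 high and rats 3, 5 and 7 low in ENSRNOG00000002413. Against the leading members the median correlation over the same 9 libraries was −0.28. In cortex the highest library was that of rat 3 in all 6, and the pairs had a median correlation of 0.80 over 10 libraries, while the median against the leading members was 0.07. In hippocampus the lowest correlation within either group was above the highest between them. In cortex the medians differed in the same way, but single pairs overlapped (0.14 to 0.96 within the second group and −0.56 to 0.43 between the groups). In thalamus the median between the groups was 0.55, above the 0.35 within the leading members, so that the groups did not part there. The group was picked after its values were seen, and its correlations are given as a description.

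**Figure D4:**
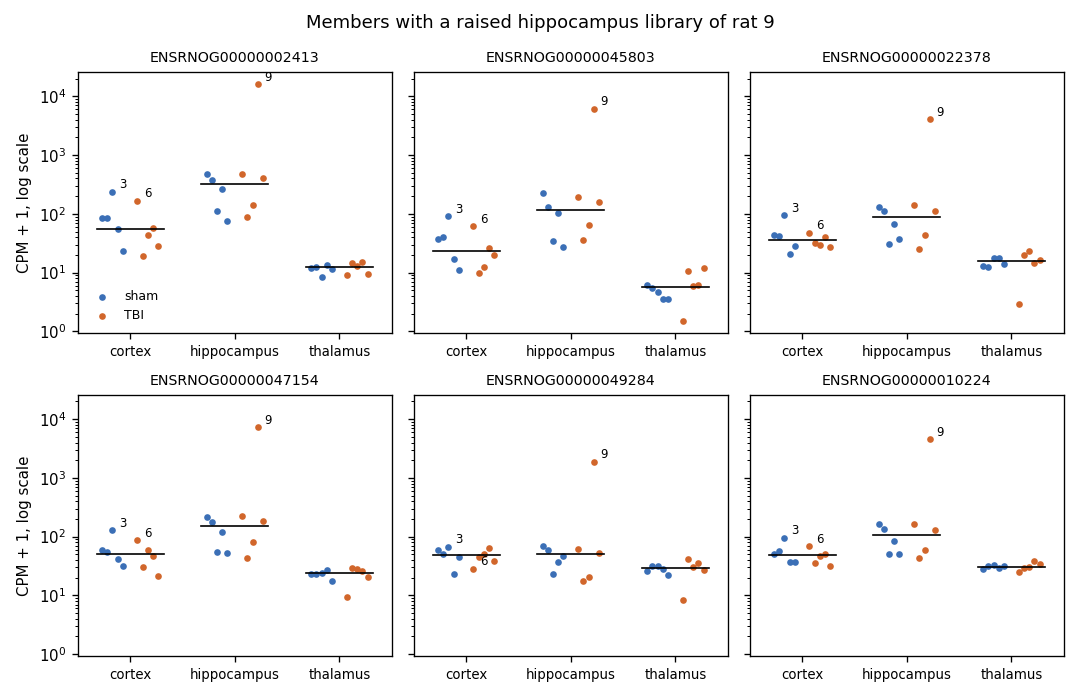
CPM plus 1 (log scale) in each of the 30 libraries, by tissue, for the 6 members whose hippocampus library of rat 9 was more than 4 times the tissue median, with sham and TBI in separate colours and medians as lines. Rat 9 stands at 1898 to 16052 CPM in hippocampus, and cortex rat 3 is the highest cortex library in each panel.

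Gene body counts gave a second view of the same genes, although gene bodies can share reads with promoters. Of the members, 30 had no gene body count in any library (16.1%, against 14.7% of the matched promoters), and 24 had 50 or more counts in sum. Of these 24, 4 had their lowest gene body level in thalamus (16.7%), against 272 of 2929 matched genes with as many counts (9.29%). Most of the 24 members, like most of these genes, thus had their lowest gene body level in another tissue. The difference between the shares rests on few members and was not tested. ENSRNOG00000046024 and ENSRNOG00000050499, both among the 24, had equal gene body sums in each tissue. ENSRNOG00000046024, for example, had 7.14 gene body CPM (counts pooled over libraries and scaled by the total promoter count) in cortex, 4.71 in hippocampus and 10.4 in thalamus, an order that differed from that of its promoter.

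ENSRNOG00000042179 was the clearest case of a gene body lowest in thalamus. Its gene body had 45 to 252 counts in the cortex libraries and 143 to 469 counts in the hippocampus libraries, but 0 counts in all 10 thalamus libraries. It was the only one of 238 gene bodies with 100 or more summed counts in both cortex and hippocampus that had none in thalamus. At 3 counts for a count of 0, the thalamus libraries allow at most 1.12 gene body CPM, a bound that covers counting error only. The lowest cortex library was at least 13.6-fold and the lowest hippocampus library at least 79.3-fold above this limit. The promoter of the same gene was captured in thalamus, with 19.4 to 45.9 CPM, against 29.8 to 157 CPM in cortex and 107 to 262 CPM in hippocampus.

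**Figure D5:**
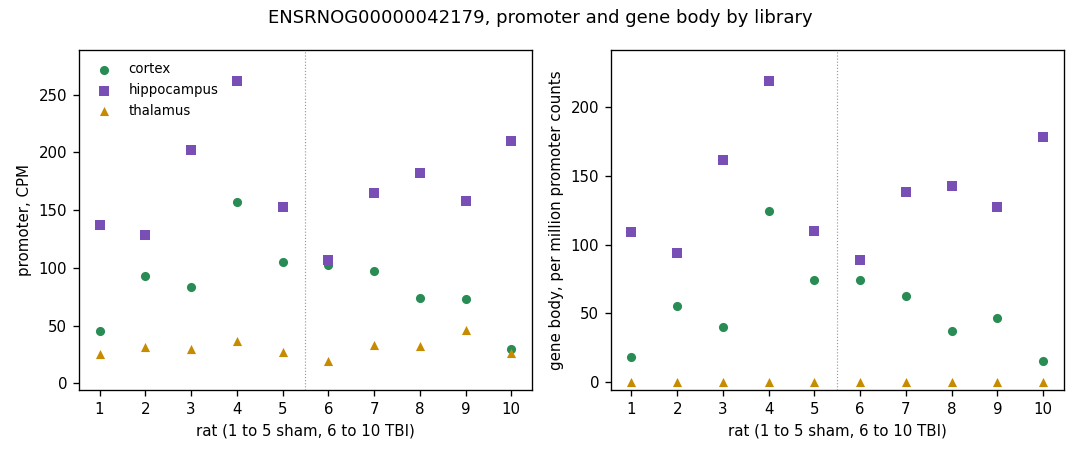
Promoter CPM (left) and gene body CPM on the promoter total (right) of ENSRNOG00000042179 for each rat and tissue. The thalamus gene body is at 0 in all 10 rats, while the promoter in thalamus is at 19.4 to 45.9 CPM.

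The ratios can be set beside those of similar rules. The rule turned around, with thalamus at 20 CPM or more and at least 1.5 times both other tissues, gave 217 promoters with a median ratio of 1.63 and a largest ratio of 4.62. The same rule for promoters captured less in hippocampus than in cortex and thalamus gave 3405 promoters with a median of 1.94 and a largest ratio of 10.7. A ratio over 3 was found in 35 of 186 promoters low in thalamus (18.8%), in 2 of 217 high in thalamus (0.922%) and in 376 of 3405 low in hippocampus (11.04%). These shares were not tested, since all 3 sets were chosen by the same levels.

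Whether TBI changed the capture of the members is a question that the rule did not touch, since it pooled sham and TBI rats. TBI was compared with sham in each tissue over all promoters by the quasi-likelihood test of edgeR with Benjamini-Hochberg adjustment. At an adjusted p under 0.05, 0 members were called in cortex, hippocampus or thalamus, where the share of all promoters called was 0% in each tissue, and DESeq2 and limma voom called 0 members as well. The test covered 186 members in cortex and hippocampus and 184 in thalamus, where 2 did not pass the filter on low counts. At an unadjusted p under 0.05 there was 1 member in cortex, 10 in hippocampus and 2 in thalamus, and the shares of all promoters at this level were 0.773%, 2.85% and 0.904%.

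In cortex the only member at an unadjusted p under 0.05 was lower in TBI, a direction that 0.24% of all promoters had at this level against 0.534% that were higher. ENSRNOG00000049781 had 31.1, 26.7, 30.3, 40.9 and 33.8 CPM in the sham rats and 16.7, 21.6, 27.6, 28.0 and 20.04 CPM in the TBI rats. The means were 32.6 ± 5.29 and 22.8 ± 4.90 CPM (SD, n = 5 each), and the groups overlapped through rats 8 and 9. The log2 fold change was −0.45 ± 0.19 (SE) with an adjusted p of 1.00. ENSRNOG00000026000 (log2 fold change −0.30 ± 0.15) and ENSRNOG00000009582 (−0.60 ± 0.30) followed by size of p and were not called either.

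Over all members the median log2 fold change in cortex was −0.10, and 51 of 186 were above 0 (27.4%), where the median over all promoters was −0.01 and 48.3% were above 0. The direction changed with the libraries used. Without sham rat 4, whose cortex library was the highest in 110 members, the median was 0.14 and 144 of 186 members were above 0. Without the 4 cortex libraries that stood apart, rat 4 among them, the median was again below 0 at −0.13. This alternative was chosen after seeing the data and left sham rats 2, 3 and 5 against TBI rats 7, 8 and 9. In that fit 36 members were at an unadjusted p under 0.05, where the share of all promoters was 6.39%, and 34 of them were lower in TBI, where the share was 3.43%, and 0 were called.

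In hippocampus 9 of the 10 members at an unadjusted p under 0.05 were higher in TBI and 1 was lower, where 1.25% of all promoters were higher and 1.6% were lower at this level. In 8 of the 10 the highest library was that of rat 9, among them the 6 promoters described above. ENSRNOG00000022378 had 127, 112, 29.3, 65.0 and 35.9 CPM in the sham rats and 140, 23.8, 42.7, 4113 and 111 CPM in the TBI rats. Apart from rat 9 the groups overlapped throughout. Its log2 fold change was 3.43 ± 1.08 (SE) with an adjusted p of 1.00.

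ENSRNOG00000047154 (log2 fold change 3.50 ± 1.11) and ENSRNOG00000010224 (3.20 ± 1.02) had the same pattern of libraries and were also not called. Without rat 9, the count at an unadjusted p under 0.05 was 1, with a share of 2.7% over all promoters, and the log2 fold change of ENSRNOG00000022378 was 0.19. An exact test with 1 common dispersion for all promoters, in contrast, called 8 members in hippocampus with TMM scaling, where it called 156 of 20017 promoters (0.779%). In 6 of them rat 9 held the excess, and in the other 2, ENSRNOG00000006553 and ENSRNOG00000028526, the highest library was that of sham rat 1 with 601 and 1004 CPM. These 8 calls thus came from members in which 1 library lay far above the other 9.

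In thalamus both members at an unadjusted p under 0.05 were higher in TBI, where 0.42% of all promoters were higher and 0.484% were lower at this level. This fit left out 2 members by the filter on low counts. With every row of at least 1 count kept, all 186 members were tested and 3 were at this level, all higher in TBI. Of the 22296 promoters in that fit, 91 were higher and 110 were lower at this level, and 0 were called. ENSRNOG00000032596 had 19.2, 19.7, 28.5, 41.5 and 26.5 CPM in the sham rats and 27.7, 31.1, 48.3, 55.3 and 28.5 CPM in the TBI rats. The means were 27.1 ± 9.05 and 38.2 ± 12.8 CPM (SD, n = 5 each), the groups overlapped, and the log2 fold change was 0.57 ± 0.19 (SE) with an adjusted p of 1.00. ENSRNOG00000016063 had a log2 fold change of 0.38 ± 0.17 and ENSRNOG00000005246, next by size of p, one of 0.37 ± 0.18. The median over the 184 members tested was 0.05, with 65.2% above 0 against 55.7% of all promoters, and it became −0.02 when library totals replaced TMM scaling.

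Whether TBI acted differently on the members in thalamus than in the other tissues was tested as an interaction of TBI and tissue over the matched promoters. At an adjusted p under 0.05, 0 of 186 members and 0% of all promoters were called, for thalamus against cortex and for thalamus against hippocampus. At an unadjusted p under 0.05 there were 4 members for thalamus against cortex, with a share of 0.798% over all promoters, and 6 for thalamus against hippocampus, with a share of 1.88%. Without rat 9 the latter count was 1, while the share of all promoters was again 1.88%. With rat as a replicate block, which uses that the 3 tissues came from the same animals, 0 members were called in both interactions, and the unadjusted counts were 9 and 1, with shares of 1.42% and 0.813% over all promoters.

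For thalamus against cortex the 4 members at this level, like 140 of the 186 members in all, had a difference of log2 fold changes above 0, meaning a TBI change that was more upward in thalamus. Over the members the median difference was 0.18 against 0.02 over all promoters. Without rat 4 the median was −0.10, while it stayed above 0 when any other single rat was left out.

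ENSRNOG00000048190, a leading member, was among them with a difference of 1.56 ± 0.65 (SE) and an adjusted p of 1.00. In thalamus it had 3.09, 2.91, 2.51, 2.24 and 2.18 CPM in the sham rats and 3.07, 6.34, 4.90, 5.81 and 6.98 CPM in the TBI rats, so that rat 6 alone lay in the sham range. In cortex it had 40.6, 89.9, 98.0, 207 and 99.9 CPM in sham and 120, 90.3, 58.2, 67.1 and 28.3 CPM in TBI rats, and the groups overlapped. The thalamus levels came from small counts in a tissue where this promoter was nearly uncaptured. ENSRNOG00000049781 (0.83 ± 0.32) and ENSRNOG00000009582 (0.91 ± 0.42) were the other members named by the size of p in this interaction. For thalamus against hippocampus the first members by size of p were ENSRNOG00000047154, ENSRNOG00000010224 and ENSRNOG00000022378, with differences of −3.47, −3.04 and −3.36, in which rat 9 of the hippocampus was the far library.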

How the data were processed

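MBD-seq counts of 30 libraries (10 rats, 3 tissues) were used. The authors captured methylated DNA, aligned the reads with STAR, splicing switched off, to the rat assembly Rnor_5.0 and summed them over promoters and gene bodies in R 3.1.0, and the deposited counts were whole numbers without normalization. Exon counts were not used here. CPM was the count divided by the library's total promoter count, and gene body counts were divided by the same total. Rat numbers in the labels are shared between tissues and mark the same animal. Deviations from the group mean correlated between tissues of a rat with a median of 0.01 for cortex and hippocampus, 0.13 for cortex and thalamus and −0.03 for hippocampus and thalamus. No replicate pair agreed within counting noise.

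TBI was compared with sham over all promoters after filterByExpr (minimum count 10, minimum total 15) and TMM scaling with the quasi-likelihood test of edgeR 4.0.16 in R 4.3.3. The interaction was fitted on the matched promoters. Standard errors were derived from the F statistic. The tests were tried on simulated data. The 186 members, the rules for naming and the lists were chosen with earlier results of these data known. Named were the 10 members with the largest smaller ratio, the 5 highest in cortex, 3 on each side of the threshold and 3 per comparison with the smallest p. Lists of gene symbols drawn up for this work could not be applied because identifiers had no symbols. Alternatives were DESeq2 1.42.0, library totals, other filters, limma 3.58.1 voom with sample weights, equal rows kept once, common-dispersion exact tests, the replicate block and leaving out each rat. Python 3.11.15, pandas 2.3.3 and matplotlib 3.10.9 were used for tables and figures.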

Additional observations from a re-analysis of the deposited data

Results flagged for a closer look

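Of 82 groups of 5 libraries examined, 16 held a library far from the other 4, where about 1 in 20 groups (4.1) would do so by chance. Many of these groups share libraries and move together, so that they are not separate events. ENSRNOG00000002413 was added to the promoters examined after its values were seen, and the leading pair with equal counts entered under both identifiers. The 16 can therefore not be weighed against the 4.1.

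The sham cortex library of rat 4 was far above the other sham cortex libraries in 6 leading members. It had 610 CPM in ENSRNOG00000027365 and in its equal partner ENSRNOG00000048957 (others 85.2 to 223), 897 CPM in ENSRNOG00000018173 (168 to 364), 452 CPM in ENSRNOG00000004581 (77.5 to 180), 1334 CPM in ENSRNOG00000005954 (239 to 509) and 149 CPM in ENSRNOG00000005145 (36.1 to 57.4).

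The TBI hippocampus library of rat 9 had 6.74% of its promoter counts in the members, where the other 4 TBI libraries had 2.32% to 3.31%, and 16052 CPM in ENSRNOG00000002413, where the others had 86.0 to 483 CPM. The same promoter stood apart in cortex in rat 3 among sham libraries (238 CPM against 22.0 to 82.8) and in rat 6 among TBI libraries (166 CPM against 18.5 to 55.4).

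The median CPM of the members was 24.7 in the TBI cortex library of rat 10 (others 41.1 to 47.7) and 14.7 in the TBI thalamus library of rat 6 (others 20.6 to 22.5). Thalamus rat 6 also had 0.237 CPM in ENSRNOG00000002628, where the others had 1.96 to 2.51 CPM. The remaining single libraries were TBI hippocampus rat 7 with 276 CPM in ENSRNOG00000048190 (151 to 175), sham thalamus rat 4 with 24.3 CPM in ENSRNOG00000009131 (13.7 to 16.7) and TBI thalamus rat 8 with 9.47 CPM in ENSRNOG00000036719 (10.4 to 10.8).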

How the results depend on the processing

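The number of members was 168 to 215 when 1 rat was left out (lowest without rat 6, highest without rat 10) and 147 to 274 under the other scalings, summaries, groups of libraries, the thinned thalamus and the floor of 10 CPM. It was 69 with a floor of 50 CPM and 73 with a ratio of 2, both subsets by construction. Of the 186 members, 154 were kept with TMM over 30 libraries and 143 with DESeq2 size factors, and sham rats alone gave 238 promoters, of which 161 were members. The median smaller ratio of the members stayed between 1.69 and 1.87.

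Called members remained 0 in cortex, thalamus and both interactions under each alternative run, the replicate block (0 and 0 members) included. In hippocampus the common-dispersion exact test called 6 members with library totals and 8 with TMM, and 156 of all promoters with either, while each other alternative called 0. Over all promoters these exact tests called 7 and 25 in cortex and 0 and 3 in thalamus. Without hippocampus rats 5 and 9, an alternative chosen after seeing the data, the log2 fold changes of ENSRNOG00000022378, ENSRNOG00000047154 and ENSRNOG00000010224 turned to −0.023, −0.069 and −0.11. Unadjusted counts moved with single rats. Without rat 6 they were 37 in cortex (19.9%, all lower in TBI), 14 in thalamus (7.57%) and 30 in the interaction with cortex (16.1%, all above 0). Of all promoters, 5.08%, 5.76% and 2.03% were at this level. In the same direction as the members, these were 3.15% in cortex and 1.04% in the interaction. The median log2 fold change of the members turned negative in hippocampus with limma sample weights (−0.097), without rats 5 and 9 (−0.076) and without rat 2, 5 or 7 (−0.11 to −0.011), in thalamus with library totals (−0.020, and −0.021 in the exact test), and in the interaction with hippocampus with the replicate block (−0.034), with library totals (−0.026) and without rat 1, 3, 4 or 6 (−0.075 to −0.045). In cortex and the interaction with cortex it turned without rat 4 alone. The causes were not tested. The CPM of the leading members in thalamus rests on few reads, and CPM depends on the other promoters of a library.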
